A study of Mus musculus with 7 samples.

Results

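In mouse liver, 626 sites far from transcript starts had strong binding of the cohesin subunit Rad21 over a weak peak of the DNA-binding protein CTCF, and these are called weak-CTCF peaks. Each is an autosomal Rad21 peak with a fold enrichment over background of at least 6, a summit more than 1 kb from every transcript start of the GENCODE annotation of mm9, and an overlap of at least 1 bp with CTCF peaks of which the strongest has a fold enrichment under 4. There were 626 such peaks among 68656 Rad21 peaks on all chromosomes and 67228 on autosomes. They made up 2.95% (95% Wilson interval 2.73 to 3.18%) of the 21238 autosomal Rad21 peaks that were both distal (over 1 kb from a start) and of fold 6 or more. The others of those 21238 were 20018 peaks with a CTCF peak of fold 4 or more, called strong-CTCF peaks, and 594 with no CTCF peak, called CNC peaks. A further group of 5500 distal peaks had the same weak CTCF but a Rad21 fold under 6, and these are called weak-cohesin peaks.

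Cohesin and the zinc finger protein CTCF are found together at most of the anchors of chromatin loops: cohesin extrudes a loop of DNA until it meets CTCF bound to its motif, and Rad21, the subunit that closes the cohesin ring, marks where the complex rests. In liver, sites with both factors have been called CAC sites and cohesin sites without CTCF have been called CNC sites, and the latter are known for lying at enhancers bound by hepatocyte transcription factors. The study sorted its sex-differential cohesin peaks by the number of CTCF replicates with an overlapping peak. Its CNC sites could still overlap a CTCF peak of a minority of replicates. CNC peaks here overlap no peak of the CTCF list used, and some weak-CTCF peaks may be CNC sites under the study's definition. Weak-CTCF peaks sit between the CNC and strong-CTCF peaks used here: Rad21 enrichment was high, a CTCF peak was called at the same place, and that CTCF peak was weak.

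The peaks come from 2 lists, 1 for CTCF and 1 for Rad21, made by ChIP-seq (sequencing of DNA that an antibody pulled down from sheared, crosslinked chromatin) of liver nuclei from female CD-1 mice at 8 weeks of age, with no treatment or genetic change named in the labels of either group. The CTCF group has 4 libraries and the Rad21 group has 3, and each list was called once, on the pooled reads of its libraries. Bulk liver holds hepatocytes and other cells, and a weak peak present in all cells cannot be told apart from a strong peak present in a few. With 1 pooled list per factor there is no spread between mice, and the number of reads behind each pool is not in the lists, so every p-value below counts peaks and every interval covers counting error only.

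Weak-CTCF peaks were selected on their measured Rad21 and CTCF folds, so these are given as a description. Rad21 fold in weak-CTCF peaks ran from 6.001 to 12.9 with a median of 6.84, close to the median of 6.75 in CNC peaks and well under the median of 12.1 in strong-CTCF peaks. Of the 626, 359 had a Rad21 fold of 6 to 7, 164 had 7 to 8, 90 had 8 to 10 and 13 had 10 or more. Over all autosomal Rad21 peaks, 61.4% had a fold under 6.

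The CTCF side was weak against its own list, in which 29.5% of autosomal peaks had a fold under 4. The strongest CTCF peak at each site had a fold between 2.46 and 3.999 with a median of 3.48, and 62 of the 626 were under 3. The median −log10 q was 6.32, and 13.6% of the autosomal CTCF peaks had a lower value. In 595 sites a single CTCF peak overlapped the Rad21 peak, in 29 there were 2, and in 2 there were 3 or more. The Rad21 and CTCF folds come from different antibodies and read pools and are not compared with each other. The scatter of the pair of folds shows the corner that the rule takes from the whole cloud.

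**Figure D1:**
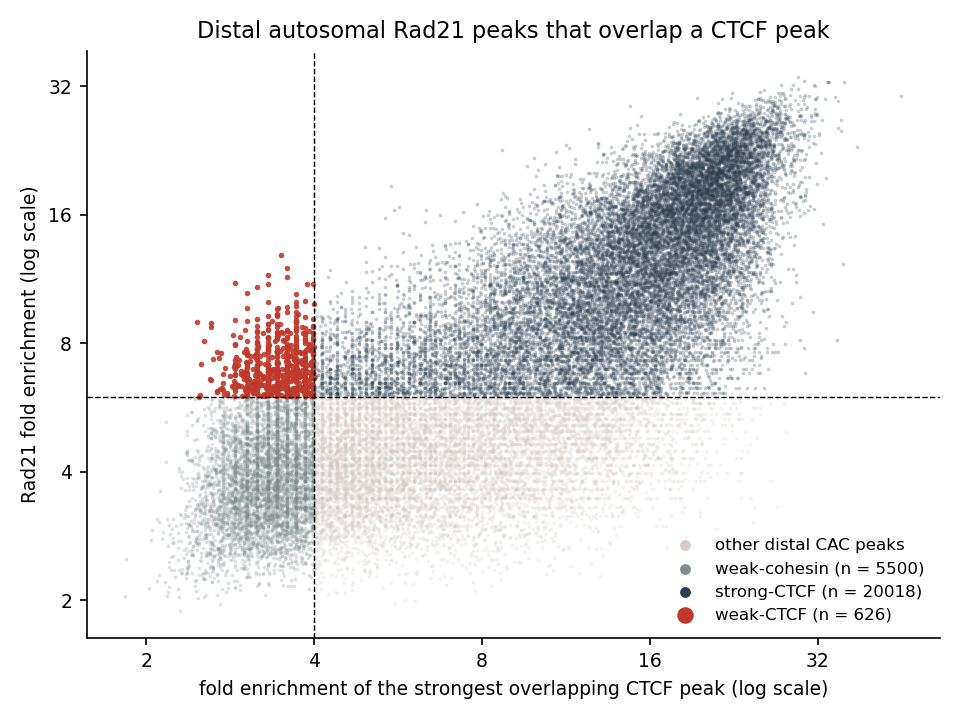
Each point is a distal autosomal Rad21 peak that overlaps a CTCF peak, with the fold of the strongest overlapping CTCF peak on the x axis and the Rad21 fold on the y axis, both on log scales without units; the dashed lines are at CTCF fold 4 and Rad21 fold 6. The 626 weak-CTCF peaks fill the upper left corner with Rad21 folds up to 12.9, below the main cloud of 20018 strong-CTCF peaks, whose median Rad21 fold was 12.1.

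At the limits of the rule the neighbours differ little. The weakest Rad21 folds kept were 6.001, 6.008 and 6.009, at peaks nearest to Ntrk2, Paqr9 and Shb, and the nearest peaks left out had 5.998, 5.997 and 5.997, at Tacc1, Pik3r1 and Gm17387. The highest CTCF folds kept were 3.999, 3.991 and 3.988, at Foxa2, Dapk2 and Errfi1, and those just outside were 4.001, 4.002 and 4.002, at Polr1a, Klrb1c and Ppp5c. The summits closest to a transcript start lay 1026, 1204 and 1220 bp away, at Prdm16, Dazl and Il1rn, while peaks left out for proximity lay at 967, 893 and 890 bp, at Ppp1r3g, Ppp1r3c and Dyrk1a.

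Sequence is shown first for the few sites where the CTCF motif itself is present. A CTCF matrix of 20 bp was learned from the 1000 strongest CTCF peaks of odd autosomes and scored on even autosomes, and the other way round, and both matrices had TGGCCACCAGGGGGCGCCAG as the most frequent base in each column. A motif was called at scores that 1% of windows 1000 bp away from distal Rad21 summits reach. The lines below give the mm9 plus strand, 5′ to 3′, with the best match in capitals, for the 3 weak-CTCF peaks with the highest matrix score and for the weak-CTCF peak with the highest Rad21 fold. They are named by the gene with the nearest protein-coding start: Spry2, an inhibitor of receptor tyrosine kinase signalling, Zfp281, a zinc finger transcription factor, Commd8, inside a Gabrb1 intron (a GABA receptor gene), and Lclat1, an acyltransferase of cardiolipin.
Spry2 (chr14:106302206-106302265): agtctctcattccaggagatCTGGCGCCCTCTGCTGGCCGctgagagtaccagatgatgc
Zfp281 (chr1:138500922-138500981): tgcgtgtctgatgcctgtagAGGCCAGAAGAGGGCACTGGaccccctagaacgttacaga
Commd8 (chr5:72477893-72477952): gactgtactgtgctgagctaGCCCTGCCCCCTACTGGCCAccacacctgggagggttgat
Lclat1 (chr17:73646427-73646486): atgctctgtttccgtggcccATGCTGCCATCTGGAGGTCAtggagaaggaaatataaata
The match scored 26.8 bits at Spry2 on the minus strand, 22.7 bits at Zfp281 on the plus strand, 22.2 bits at Commd8 on the minus strand and 19.9 bits at Lclat1 on the minus strand. CTCF fold at these peaks was 3.91, 3.85, 3.99 and 3.48, so a high-scoring motif was present at a CTCF fold under 4. The CTCF −log10 q was 30.8, 7.58, 8.23 and 17.9 in that order, each above the median of 6.32 over weak-CTCF peaks.

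Such sites were the exception. A CTCF motif within 100 bp of the Rad21 summit was found in 48 of 626 weak-CTCF peaks, or 7.67% (95% Wilson interval 5.83 to 10.02%), against 39.7% of all 50875 distal autosomal Rad21 peaks. In strong-CTCF peaks the share was 73.4%, a difference of −65.7 percentage points (95% interval −67.6 to −63.3; Fisher's exact test, two-sided, Benjamini-Hochberg adjusted over 45 tests, p = 2.32e-256). The matrix was learned from the CTCF peaks of highest fold, and this comparison splits peaks by CTCF fold. A lower share in weak-CTCF peaks therefore follows in part from the rule. When strong-CTCF peaks were restricted to the Rad21 fold range of most weak-CTCF peaks, 6 to 8, the shares were 6.69% and 56.9%. With only CTCF peaks of −log10 q of at least 10, which left 31 weak-CTCF peaks, the shares were 32.3% and 73.7%. Against weak-cohesin peaks, 550 of 5500 with a motif, the difference of −2.33 points did not pass (95% interval −4.34 to 0.141; adjusted Fisher's exact p = 0.112), but did when only weak-CTCF peaks of Rad21 fold 6 to 8 were taken (−3.31 points, adjusted exact p = 0.0311).

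CNC peaks, at which no CTCF peak was called at all, had the motif in 4.55%. The difference of 3.12 points was small (95% interval 0.417 to 5.86; adjusted Fisher's exact p = 0.0429), and it rested on the definitions: it no longer passed with motif windows of 50 or 200 bp, and it passed in the opposite direction, at −6.15 points, when at least 50% of the CTCF peak had to lie inside the Rad21 peak (adjusted exact p = 0.000914). That setting moved Rad21 peaks with a smaller CTCF overlap into the CNC class, which grew from 594 to 690 with a motif in 13.9%. The weak-CTCF share was 7.77%. In the 48 weak-CTCF peaks with a motif, the centre of the match was a median of 22.5 bp from the Rad21 summit, and in 46 of them the CTCF and Rad21 summits were within 100 bp. The summits were that close in 363 of the 578 without a motif.

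Sequence words of hepatocyte transcription factors were present in a minority of weak-CTCF peaks, and 451 of the 626 had none. 5 consensus words were searched on both strands within 100 bp of the Rad21 summit: TGTTTAC for forkhead factors such as FOXA, TTGCNNAA for C/EBP factors, CAAAGTCCA for HNF4A, GTTAATNAT for HNF1 and ATCAATA for ONECUT factors. A second set, outside that group, held TTCNNNGAA for STAT factors, TGANTCA for AP-1 and AGGTCA, the core of many nuclear receptor sites. No 2 of the words are contained in each other, but neighbouring matches may share bases. Sequences are given for 6 weak-CTCF peaks, on the mm9 plus strand 5′ to 3′ and centred on the Rad21 summit, with words of the first 5 in capitals. 4 are from the 5 of highest Rad21 fold among 11 peaks with 2 different words, and the others are the strongest site with a word, next to the zinc finger gene Sall1, and the strongest site next to a hepatocyte factor gene, Foxa2.
Rpl12-ps1 (chr1:37033804-37034004): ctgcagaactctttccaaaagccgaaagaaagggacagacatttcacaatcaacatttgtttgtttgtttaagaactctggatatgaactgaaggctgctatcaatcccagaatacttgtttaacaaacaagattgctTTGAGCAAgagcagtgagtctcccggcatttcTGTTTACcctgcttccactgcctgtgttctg
Psmg1 (chr16:96076988-96077188): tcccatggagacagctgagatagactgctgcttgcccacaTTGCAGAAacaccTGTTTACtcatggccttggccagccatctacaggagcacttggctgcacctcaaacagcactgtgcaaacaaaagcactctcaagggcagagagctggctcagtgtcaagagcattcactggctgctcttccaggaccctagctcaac
Zkscan1 (chr5:138517442-138517642): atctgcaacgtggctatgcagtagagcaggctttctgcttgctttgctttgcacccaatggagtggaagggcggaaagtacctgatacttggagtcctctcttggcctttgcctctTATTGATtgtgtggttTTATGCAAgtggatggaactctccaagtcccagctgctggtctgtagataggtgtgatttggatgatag
Alg10b (chr15:90177308-90177508): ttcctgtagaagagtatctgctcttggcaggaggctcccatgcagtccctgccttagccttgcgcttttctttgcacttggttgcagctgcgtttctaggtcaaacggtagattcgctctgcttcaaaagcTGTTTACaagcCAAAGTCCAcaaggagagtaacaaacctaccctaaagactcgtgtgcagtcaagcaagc
Sall1 (chr8:91621431-91621631): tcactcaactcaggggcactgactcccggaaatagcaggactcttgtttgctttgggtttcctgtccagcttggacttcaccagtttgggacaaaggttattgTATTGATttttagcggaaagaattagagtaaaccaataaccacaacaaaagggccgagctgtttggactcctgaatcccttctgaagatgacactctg
Foxa2 (chr2:147730902-147731102): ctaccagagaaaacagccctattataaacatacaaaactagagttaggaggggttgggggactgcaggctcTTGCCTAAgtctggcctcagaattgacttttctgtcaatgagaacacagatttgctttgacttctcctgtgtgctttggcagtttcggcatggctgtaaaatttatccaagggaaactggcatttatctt
At Alg10b, a forkhead word and an HNF4A word stand 34 and 46 bp from the summit. The Zkscan1 peak has an ONECUT word at 19 bp and a C/EBP word at 36 bp, both on the minus strand. The peaks at Rpl12-ps1 and Psmg1 each have a forkhead and a C/EBP word, Sall1 has an ONECUT word 6 bp from the summit, and Foxa2 has a C/EBP word at 25 bp. None of the 6 has a called CTCF motif. A word is a run of letters in the genome and does not show that a factor was bound.

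At least 1 of the 5 hepatocyte factor words was present in 175 of 626 weak-CTCF peaks, or 27.96% (95% Wilson interval 24.6 to 31.6%), against 17.3% of all distal Rad21 peaks and 13.1% of 93285 flanking windows of the same length. Neither a CTCF motif nor one of these words was found in 409 weak-CTCF peaks, 65.3%. Strong-CTCF peaks had 12.9%, a difference of 15.03 points (95% interval 11.6 to 18.7; adjusted Fisher's exact p = 1.25e-21). Weak-cohesin peaks had 21.2%, which was 6.79 points lower (95% interval 3.24 to 10.6; adjusted exact p = 0.000385). CNC peaks had 31.99%, and the difference of −4.03 points did not pass (95% interval −9.15 to 1.11; adjusted exact p = 0.214). The call against weak-cohesin peaks was lost among the 103 weak-CTCF peaks with a Rad21 fold of at least 8 (8.93 points, adjusted exact p = 0.107). With a CTCF limit of 3, which left 62 weak-CTCF peaks, the difference was 7.61 points from strong-CTCF peaks (adjusted exact p = 0.291) and −1.03 points from weak-cohesin peaks. With CTCF peaks of −log10 q of at least 10 alone, which left 31, these were −6.41 and −9.63 points and neither passed, while the difference from CNC peaks passed at −23.5 points (adjusted exact p = 0.014). It also passed at a CTCF limit of 5, with −7.05 points (adjusted exact p = 0.00393).

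Among single words, 4 of the 5 were more frequent in weak-CTCF than in strong-CTCF peaks. The C/EBP word was in 105 weak-CTCF peaks, 16.8%, compared with 8.73% of strong-CTCF peaks (adjusted Fisher's exact p = 2.05e-09), 12.8% of weak-cohesin peaks (adjusted exact p = 0.0123) and 10.7% of all distal peaks. The call against weak-cohesin peaks was lost within 50 bp of the summit (2.25 points, adjusted exact p = 0.0681). The forkhead word was in 38, 6.07%, against 2.54% of strong-CTCF peaks (adjusted exact p = 7.12e-06), 4.78% of weak-cohesin peaks (adjusted exact p = 0.265) and 3.71% of all. The ONECUT word was in 26, 4.15%, against 1.39% (adjusted exact p = 6.23e-06), 2.84% of weak-cohesin peaks (adjusted exact p = 0.134) and 2.37% of all. HNF4A, a nuclear receptor at the head of the hepatocyte gene network, had its word in 14 peaks, 2.24%, against 0.425% of strong-CTCF peaks (adjusted exact p = 5.1e-06), 1.71% of weak-cohesin peaks (adjusted exact p = 0.444), 0.987% of all distal peaks and 0.247% of flanking windows. The HNF1 word was in only 3 weak-CTCF peaks, 0.479%, with 0.395% in strong-CTCF peaks (difference 0.0846 points, 95% interval −0.246 to 1.01), 0.749% in all and 0.532% in flanking windows.

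Outside the 5, the nuclear receptor word was in 154 weak-CTCF peaks, 24.6%, against 12.4% of strong-CTCF peaks (adjusted Fisher's exact p = 1.98e-15), 19.5% of weak-cohesin peaks (adjusted exact p = 0.00706) and 16.7% of all. Within 50 bp the call against weak-cohesin peaks was lost (2.16 points, adjusted exact p = 0.143). The AP-1 word was in 51, 8.15%, against 5.47% (adjusted exact p = 0.0123), 7.13% of weak-cohesin peaks (adjusted exact p = 0.463) and 6.39% of all. The STAT word, which STAT5 downstream of growth hormone recognises, was in 42, 6.71%, with 5.99% in strong-CTCF peaks, 6.2% in all and 6.09% in flanking windows, and the difference from strong-CTCF peaks was 0.72 points (95% interval −1.02 to 2.98; adjusted exact p = 0.523). No single word passed the test between weak-CTCF and CNC peaks. The interval of the difference was −6.92 to 1.73 points for the C/EBP word and −4.3 to 5.33 points for the nuclear receptor word.

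The density of words varied with distance from the cohesin summit. Counting every hepatocyte factor word, weak-CTCF peaks had 1.79 words per kb (counting error 0.17) within 50 bp of the summit and 1.2 (counting error 0.138) at 150 to 200 bp. CNC peaks had 1.96 within 50 bp, 2.04 at 50 to 100 bp and 0.926 at 150 to 200 bp, and weak-cohesin peaks had 1.25, 1.26 and 0.989. Strong-CTCF peaks had fewer words at the summit, with 0.634 within 50 bp and 0.829 at 150 to 200 bp. These densities are a description of the position of the words and were not tested.

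**Figure D2:**
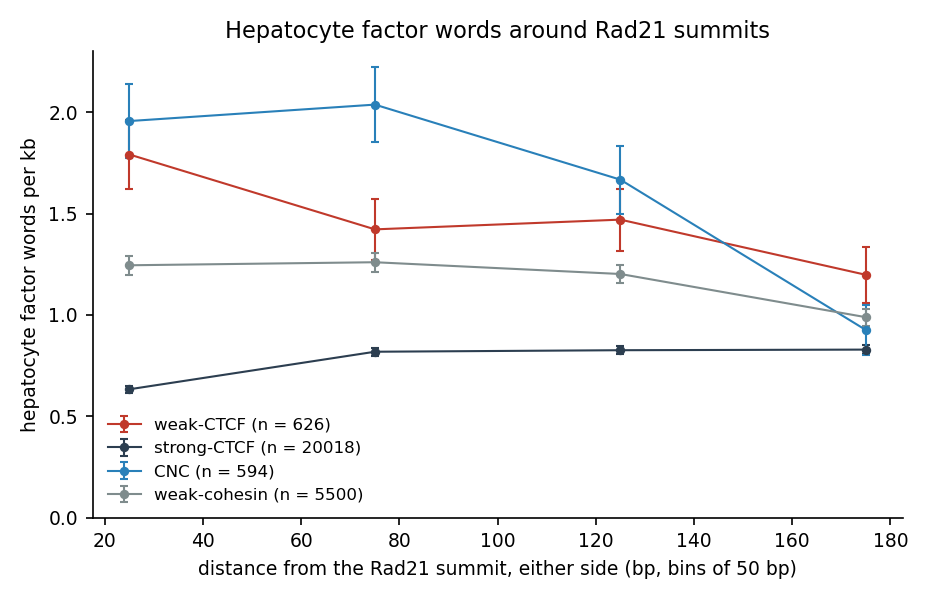
The y axis gives matches to the 5 hepatocyte factor words per kb of sequence and the x axis the distance from the Rad21 summit on either side in bins of 50 bp, for the 4 peak classes; error bars are the square root of the number of words over the same sequence length. Weak-CTCF peaks start at 1.79 words per kb and CNC peaks at 1.96, while strong-CTCF peaks start at 0.634.

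Base composition moved with the classes. G+C content within 100 bp was at least 50% in 341 weak-CTCF peaks, 54.5%, compared with 38.0% of CNC peaks (difference 16.4 points, 95% interval 10.8 to 21.9; adjusted Fisher's exact p = 4.51e-08), 43.4% of strong-CTCF peaks (adjusted exact p = 1.93e-07), 53.4% of weak-cohesin peaks (adjusted exact p = 0.705) and 44.4% of all distal peaks. The difference from strong-CTCF peaks was 1.66 points with a window of 50 bp and no longer passed. At a Rad21 fold of 8, at a CTCF limit of 3 and at a CTCF −log10 q of at least 10, the calls against both CNC peaks (adjusted exact p = 0.0811, 0.284 and 0.878) and strong-CTCF peaks were lost. The difference from CNC peaks was 16.1, 11.95 and 6.03 points in that order, with 103, 62 and 31 weak-CTCF peaks. Each of the 5 hepatocyte factor words has more A and T than G and C, so the word shares were also taken within 2 G+C classes, a comparison added after seeing the data. In windows under 50% G+C, 33.3% of weak-CTCF and 15.1% of strong-CTCF peaks had a word (adjusted exact p = 4.1e-13), and in windows of at least 50% the shares were 23.5% and 10.03% (adjusted exact p = 1.3e-11). In the latter windows CNC peaks had 22.6%, and the sign of the difference from weak-CTCF peaks turned to 0.894 points.

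Both sequence features varied with CTCF enrichment, which is given as a description. The CTCF matrix was itself learned from peaks of the highest CTCF fold. Among all distal Rad21 peaks of fold 6 or more, the share with the CTCF motif went from 4.55% without a CTCF peak to 7.8% at a CTCF fold of 3 to 4, 21.4% at 4 to 5, 31.96% at 5 to 6, 49.3% at 6 to 8 and 85.1% at 20 and over. The share with a hepatocyte factor word went from 31.99% without a CTCF peak to 28.7% at a fold of 3 to 4, 21.6% at 4 to 5, 15.4% at 5 to 6 and 12.53% at 20 and over. The 62 peaks with a CTCF fold under 3 had a word in 13, 21.0%, with an interval of 12.7 to 32.6% that includes the values on both sides. The limit of 4 lies within this range of values and not at a gap. Median Rad21 fold also rose along these bins, from 6.75 to 18.4, and its part in the trend was not tested beyond the Rad21 fold range of 6 to 8, where weak-CTCF peaks had a word in 27.5% and strong-CTCF peaks in 14.99%.

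**Figure D3:**
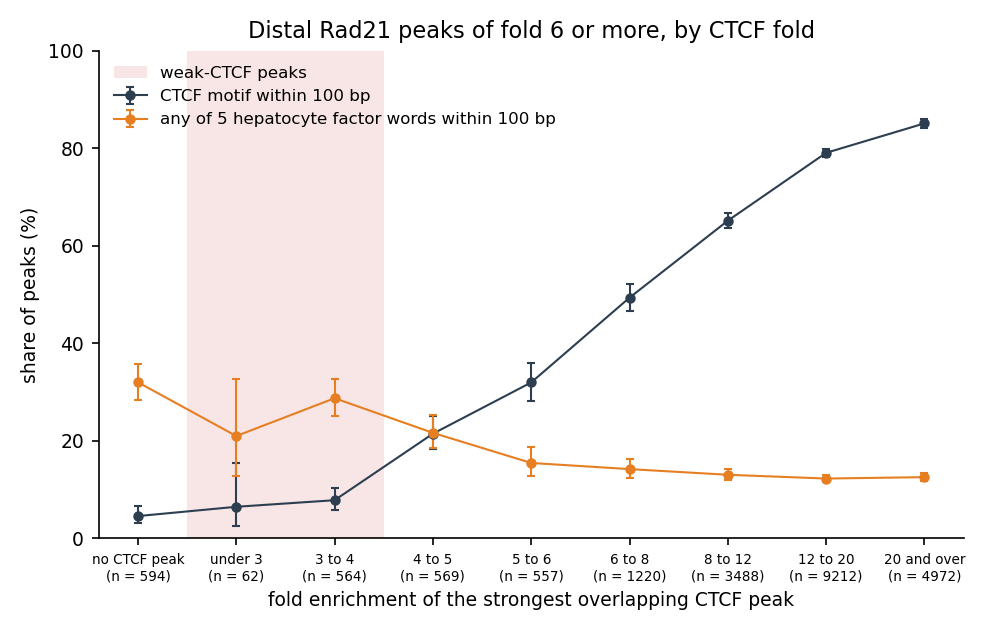
The x axis bins distal Rad21 peaks of fold 6 or more by the fold of their strongest CTCF peak, with the number of peaks under each bin, and the y axis gives the share with a CTCF motif or with a hepatocyte factor word within 100 bp of the summit; error bars are 95% Wilson intervals and the shaded bins are the weak-CTCF peaks. The motif share climbs from 4.55% to 85.1% while the word share falls from 31.99% to 12.53%, and the lines meet at a CTCF fold of 4 to 5.

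Position in the genome also differed between weak-CTCF peaks and both strong-CTCF and weak-cohesin peaks. 381 summits were intergenic (60.9%), 233 intronic and 12 exonic. The intronic share of 37.2% was under the 48.6% of all distal peaks, the 42.2% of strong-CTCF peaks (difference −4.95 points; adjusted Fisher's exact p = 0.0255, a call lost when summits had to be over 2.5 kb from a start, with −3.86 points) and the 55.4% of weak-cohesin peaks (−18.2 points, 95% interval −22.1 to −14.1; adjusted exact p = 3.8e-17). CNC peaks had 34.3%, and the difference of 2.88 points did not pass (95% interval −2.5 to 8.22).

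Distance to promoters was compared next. A protein-coding start was within 20 kb in 187 weak-CTCF peaks, 29.9%, against 49.2% of all distal peaks, 50.5% of strong-CTCF peaks (difference −20.6 points, 95% interval −24.2 to −16.9; adjusted Fisher's exact p = 9.35e-24), 52.0% of weak-cohesin peaks (adjusted exact p = 5.07e-25) and 23.4% of CNC peaks (6.47 points, 95% interval 1.5 to 11.4; adjusted exact p = 0.0227). The call against CNC peaks was lost when 50% of the CTCF peak had to be overlapped, with 2.09 points (adjusted exact p = 0.548), and at a Rad21 fold of 8 or a CTCF limit of 3. In the overlap setting, CNC peaks took in Rad21 peaks with a smaller CTCF overlap and had 27.7%, with 29.8% of weak-CTCF peaks. With CTCF peaks of −log10 q of at least 10 alone, 64.5% of the 31 weak-CTCF peaks left were within 20 kb, and the difference from strong-CTCF peaks turned to 13.8 points (adjusted exact p = 0.423). The median distance to the nearest protein-coding start was 45.8 kb for weak-CTCF peaks, between the 55.6 kb of CNC peaks and the 19.7 kb of strong-CTCF peaks. The smallest distance was 1.03 kb and the largest 691 kb.

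Neighbouring peaks gave a different order. They come from the same 2 lists and folds that chose the weak-CTCF peaks, so the tests in this paragraph are not independent of that choice. At least 2 other Rad21 summits lay within 12500 bp of 244 weak-CTCF peaks, 38.98%, which was under the 43.4% of all distal peaks and the 60.9% of weak-cohesin peaks (−21.9 points; adjusted Fisher's exact p = 2.39e-24) and above the 30.6% of CNC peaks (8.34 points, 95% interval 2.99 to 13.6; adjusted exact p = 0.00627). The call against CNC peaks was lost at a CTCF limit of 5 (4.17 points, adjusted exact p = 0.115). At a Rad21 fold of 8 it was also lost (adjusted exact p = 0.108), with a larger difference of 13.1 points between 103 weak-CTCF and 96 CNC peaks. Strong-CTCF peaks had 29.6% (adjusted exact p = 3.66e-06), but at Rad21 folds of 6 to 8 the shares were 39.8% and 38.02% and the call was lost (adjusted exact p = 0.573), as it was at a Rad21 fold of 8 and with clusters of 5 kb. 189 weak-CTCF peaks had no other Rad21 peak within 12500 bp and 193 had 1. A separate CTCF peak of fold 8 or more stood within 10 kb of 123, 19.6%, compared with 28.8% of all distal peaks, 29.9% of strong-CTCF peaks (adjusted exact p = 4.96e-08), 28.6% of weak-cohesin peaks (adjusted exact p = 3.66e-06) and 9.76% of CNC peaks (9.88 points, 95% interval 5.94 to 13.8; adjusted exact p = 3.66e-06). With CTCF peaks of −log10 q of at least 10 alone the order turned, and 70.97% of the 31 weak-CTCF peaks left had one, against 30.01% of strong-CTCF peaks (adjusted exact p = 4.7e-05) and 58.4% of weak-cohesin peaks. At a Rad21 fold of 8 the calls against strong-CTCF and weak-cohesin peaks were lost (−5.98 and −5.32 points, adjusted exact p = 0.397 and 0.508). At a CTCF limit of 3, with 62 weak-CTCF peaks, those against strong-CTCF and CNC peaks were lost (−13.5 and 6.36 points, adjusted exact p = 0.0807 and 0.353).

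**Figure D4:**
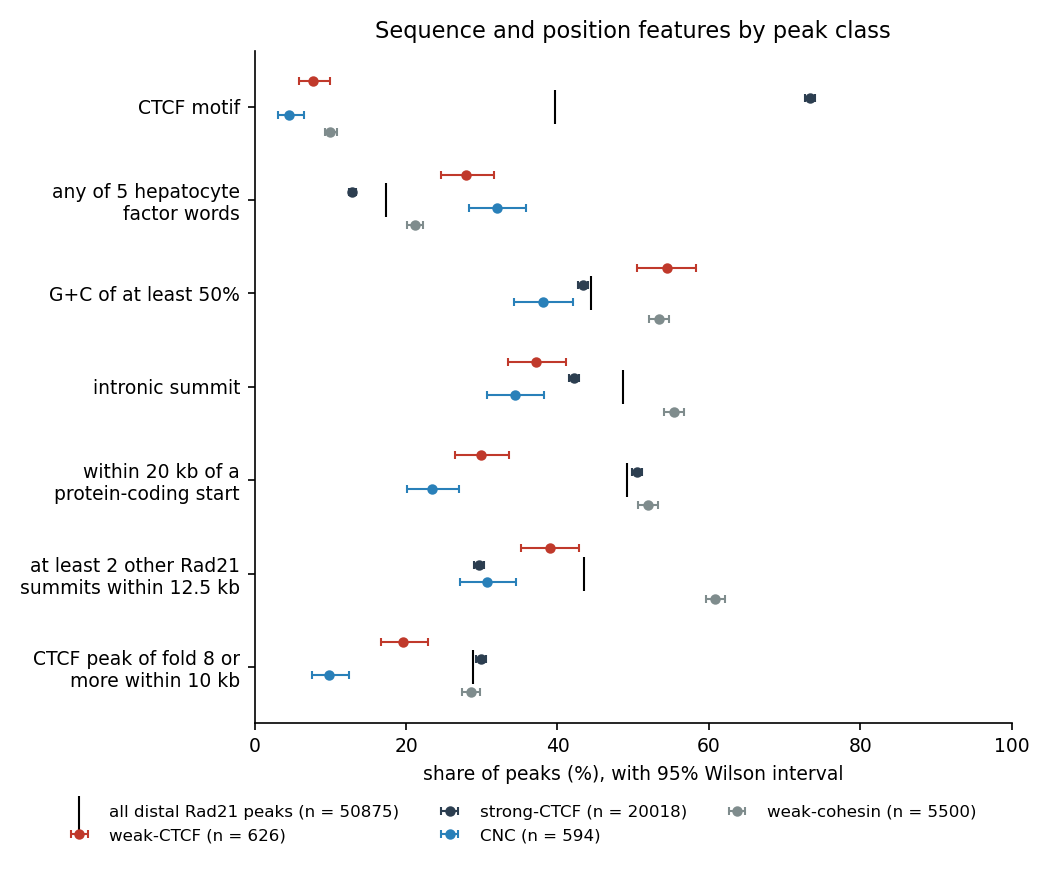
Points give the share of peaks in each class that has a feature, in percent on the x axis, with 95% Wilson intervals, and the black bars give all 50875 distal autosomal Rad21 peaks. Weak-CTCF peaks (n = 626) lie nearer to CNC peaks (n = 594) than to strong-CTCF peaks for the CTCF motif, hepatocyte factor words, introns and distance to starts, and beside weak-cohesin peaks for G+C content, at 54.5% and 53.4%.

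The shape of the peaks comes from the same peak calls as the folds and is given without a test. Weak-CTCF Rad21 peaks had a median width of 563.5 bp, against 513.5 bp in CNC, 475 bp in strong-CTCF and 377 bp in weak-cohesin peaks. Peaks of at least 1 kb made up 4.47% of weak-CTCF peaks, with 0.938% of all distal peaks, 1.35% of CNC peaks and 1.03% of strong-CTCF peaks. CTCF and Rad21 summits were a median of 70 bp apart, compared with 23 bp in strong-CTCF peaks and 77 bp in weak-cohesin peaks. Summits were within 100 bp in 65.3% of weak-CTCF peaks, 97.7% of strong-CTCF peaks, 59.7% of weak-cohesin peaks and 87.8% of all distal Rad21 peaks with a CTCF peak.

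The 10 strongest sites lay between 3.67 and 309 kb from the nearest protein-coding start, 3 of them in introns. After the peak at Lclat1, with a Rad21 fold of 12.9 (chr17:73646218-73646621, intergenic, 92.9 kb downstream of the start), came one at 12.01 (chr12:29595320-29595809, 159 kb from Tssc1) and one at 11.6 (chr8:91620959-91622025, 53.5 kb upstream of Sall1). Next were the peak 66.3 kb downstream of Dusp10, a phosphatase of stress-activated MAP kinases, at 11.4 (chr1:185924130-185924797), and one 11.6 kb upstream of the predicted gene Gm12033 at 11.1. Peaks nearest to Lrrtm1 (in an intron of the alpha-catenin gene Ctnna2), Pet112l (in an intron of Arfip1) and Slc17a6, a vesicular glutamate transporter, had folds of 11.02, 11.01 and 10.99. E2f7, an atypical E2F repressor known for its role in hepatocyte polyploidy, had one 28.3 kb upstream at 10.8, and the transcription factor gene Zfp608 had one at 10.5. Of these 10, a CTCF motif was called at Lclat1 and Slc17a6, and a hepatocyte factor word at Sall1, Dusp10 and Gm12033. Their CTCF folds were between 2.89 and 3.99, and none of them is nearest to a gene that the lists below place in hepatocytes.

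Nearest genes were then counted against 16 gene lists, with no test. The 11 lists of liver function together were nearest to 36 weak-CTCF peaks, 5.75%, compared with 4.03% of all distal Rad21 peaks, 2.21% of strong-CTCF peaks, 3.7% of CNC peaks and 5.44% of weak-cohesin peaks, and 33 of the 396 listed genes found in the annotation had one. Hepatocyte transcription factors took 9 peaks at 7 genes, 1.44% against 0.947% of all distal peaks, 1.18% of CNC peaks and 1.44% of weak-cohesin peaks. The highest Rad21 folds there were 9.87 at a peak 140 kb downstream of Foxa2, a forkhead factor that opens liver chromatin (chr2:147730623-147731211), and 9.35 and 8.95 at peaks 55.0 and 132 kb upstream of Bcl6, a transcriptional repressor with sex-dependent expression in liver (chr16:24043654-24044373 and chr16:24120872-24121393). A peak of fold 7.19 lay 75.5 kb upstream of Gata6, an endoderm transcription factor, with an ONECUT word 8 bp and a forkhead word 12 bp from the summit. Genes of drug metabolism and transport took 7 peaks at 7 genes, 1.12% against 0.419% of all and 0.309% of weak-cohesin peaks, with folds of 7.47 upstream of Cyp2d10 and of the ethanol-oxidising enzyme gene Cyp2e1, and 6.86 upstream of Slco1b2, a hepatocyte uptake transporter of organic anions. The Cyp2d10 peak holds an HNF4A word.

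Glucose metabolism took 6 peaks at 5 genes, 0.959% against 0.486% of all distal peaks, 1.01% of CNC peaks and 0.655% of weak-cohesin peaks, led by Ppargc1a, a coactivator of gluconeogenic genes, at 7.99, then the insulin signalling adaptor Irs2 at 7.65 and Pfkfb3, a regulator of glycolysis, at 6.69. Fatty acid genes took 5, 0.799% against 0.409% of all and 0.546% of weak-cohesin peaks, with Fads1, a fatty acid desaturase, at 9.09, Acsl1, an acyl-CoA synthetase, at 7.63 and Elovl5, a fatty acid elongase, at 7.21. The growth hormone list took 3, 0.479% against 0.387% of all and 0.636% of weak-cohesin peaks, which were both Bcl6 peaks and one 56.8 kb upstream of the growth hormone receptor gene Ghr at 9.32 (chr15:3589930-3590737), which holds a STAT word. The circadian clock list also took 3, 0.479% against 0.291% of all and 0.364% of weak-cohesin peaks, at Npas2 (7.13), Rora (6.69) and Hlf (6.45).

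Lists of secreted and metabolic liver proteins gave small counts. Plasma proteins took 2 peaks, at Gc, which encodes the vitamin D binding protein, with 8.32, and at Igfbp2 with 7.93. Lipid transport took 2, at the HDL receptor gene Scarb1 (7.95) and at Fabp1 (7.06), and amino acid metabolism took 2, at Cth (7.11, 155 kb downstream) and Acmsd (6.73, 21.4 kb downstream). Each of these counts is 0.32% of weak-CTCF peaks, against 0.26%, 0.34% and 0.336% of all distal peaks for the 3 lists in that order. The coagulation and complement list and the bile acid and cholesterol list took 0 each, against 0.208% and 0.222% of all distal Rad21 peaks (106 and 113 of 50875). CNC peaks had 0 and 1.

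Genes of other liver cells were also counted. Their 4 lists took 5 peaks in all, 0.799% against 0.387% of all distal peaks. 3 of these were on the bile duct cell list (0.479% against 0.0983% of all distal peaks), at the transcription factor gene Sox9, with Rad21 folds of 9.66, 8.65 and 7.18 at 142, 354 and 363 kb downstream. The endothelial list had Lyve1 at 8.72 (0.16% against 0.149% of all distal peaks), the stellate list had Reln at 7.13 (0.16% against 0.0747%), and the Kupffer cell list had 0 (0.0649% of all). The Lyve1 peak lay 28.9 kb upstream in an intron of Mrvi1, and the Reln peak lay 87.1 kb upstream. The list of 25 neuronal genes, as an outgroup, had 1, at Slc17a6, 0.16% against 0.163% of all distal peaks. Lists of few genes give small counts, and the nearest gene is a label of position that does not show regulation.

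The 626 peaks were spread widely. They were nearest to 552 genes, of which 496 had 1 peak, 43 had 2 and 13 had 3 or more. Of 607 pairs of neighbouring weak-CTCF peaks on a chromosome, 73 were within 100 kb and 5 within 12500 bp. The share of strong distal Rad21 peaks that were weak-CTCF ranged from 1.93% on chromosome 11 (27 of 1399, 95% Wilson interval 1.33 to 2.79%) to 5.12% on chromosome 13 (49 of 958, 3.89 to 6.7%), the lowest and the highest of all autosomes.

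2 genes with many weak-CTCF peaks are described, Myc with the highest number and Gadd45g as 1 of 3 genes with 4, both chosen after their values were seen. Myc, which encodes a transcription factor of growth and proliferation, was nearest to 5, all in introns of the neighbouring long noncoding RNA gene Pvt1. They lay 128, 175, 246, 271 and 359 kb downstream of Myc with Rad21 folds of 8.31, 6.48, 7.63, 6.52 and 8.87 and CTCF folds of 3.71, 3.53, 3.02, 2.87 and 3.30. None has a CTCF motif, and 2 have a hepatocyte factor word. From 20 kb upstream to 400 kb downstream of Myc there were 32 Rad21 peaks, 5 of them strong-CTCF and 2 CNC, and 18 CTCF peaks, 4 of them of fold 8 or more. Gadd45g, a gene of growth arrest and the DNA damage response, had 4, at 56.3, 145, 163 and 175 kb downstream with Rad21 folds of 7.79, 8.04, 6.27 and 6.06, and the third has a CTCF motif. The same window there held 48 Rad21 peaks and 25 CTCF peaks, 5 of them of fold 8 or more.

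**Figure D5:**
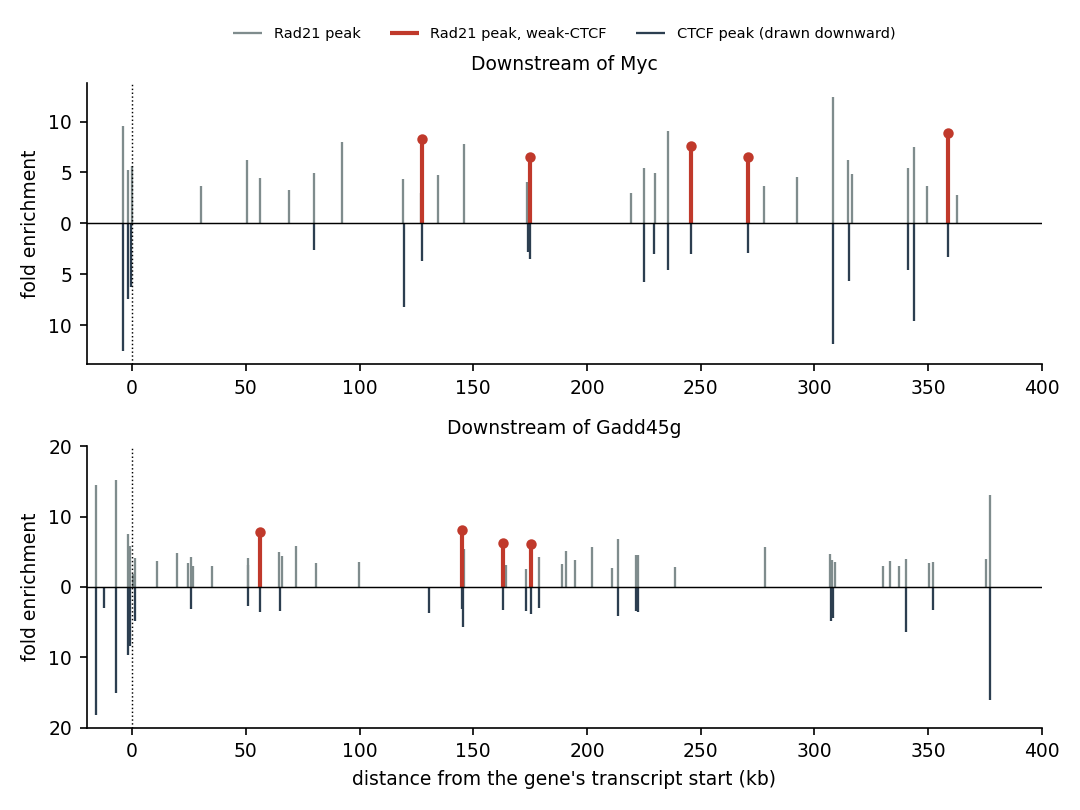
Fold enrichment of Rad21 peaks (upward) and CTCF peaks (downward) against distance in kb from the transcript start of Myc (top) and Gadd45g (bottom), from 20 kb upstream to 400 kb downstream; red lines with dots are weak-CTCF peaks. The 5 red peaks at Myc reach Rad21 folds of 6.48 to 8.87 over CTCF folds of 2.87 to 3.71.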

How the data were processed

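Chromatin of female liver nuclei was immunoprecipitated for CTCF (4 libraries) and Rad21 (3 libraries). Per the labels and the study's methods, the authors aligned reads to mm9 with Bowtie2, kept unique reads, merged the libraries of each factor, called peaks with MACS2 at default settings, and removed peaks in blacklisted regions or made only of PCR duplicates. Each deposited peak has a score, a fold enrichment (a ratio over local background), a −log10 p and −log10 q value and a summit. Read depth is not given in these lists.

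Classes were set from deposited fold values, with overlaps by bedtools 2.31.1. Genes came from GENCODE vM1 and sequence from the NCBIM37 genome, both of the mm9 build. A CTCF matrix and 8 consensus words were scored around Rad21 summits, with windows 1000 bp away as background. Shares were compared by Fisher's exact test, two-sided (scipy 1.17.1), adjusted over 45 tests with a threshold of 0.05. 95% intervals are Wilson's for shares and Newcombe's for differences. Tests first planned for peak width and summit offset were dropped, because both are measured on the peak calls that chose the peaks. Tests of neighbouring Rad21 peaks and of nearby strong CTCF peaks were kept, although these neighbours come from the same lists.

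The peaks, words and gene lists were chosen with earlier results of these data known. Regions named are the 10 of highest Rad21 fold, the 3 highest per gene list, the 5 with most hepatocyte factor words, the 3 best CTCF matrix scores and the 3 nearest to each limit on both sides. The code was tested on simulated data. The alternatives were other limits of fold, distance, −log10 q and overlap and other windows, plus 2 G+C classes added after seeing the data.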

Additional observations from a re-analysis of the deposited data

Results flagged for a closer look

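The rule takes autosomes only. On the X chromosome, outside every comparison above, 5 of 593 distal Rad21 peaks of fold 6 or more had a CTCF peak of fold under 4 as their strongest partner. Their share was 0.843% (95% Wilson interval 0.361 to 1.96%), and on autosomes it was 2.95% (2.73 to 3.18%). These shares rest on the folds of the rule itself and were not tested.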

How the results depend on the processing

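With 1 pooled list per factor, leaving out a replicate could not be run. No paired analysis was possible because each column is a pooled list that carries no replicate number. Read depth, which limits the calling of weak CTCF peaks, is not in the peak lists and was not used here. Of the alternatives for features with a test, 130 kept direction and side of the threshold, 34 lost the call, 4 gained one and 15 changed direction. For single words the counts were 41, 2, 1 and 4. Of the values of width and offset, which have no test, 29 moved little and 13 moved more. Values below are percentage points of weak-CTCF minus strong-CTCF (S), CNC (C) or weak-cohesin (W) peaks, and the cause was not tested.

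Moving the limits changed the number of peaks to 103 at a Rad21 fold of 8, to 62 and 1195 at CTCF limits of 3 and 5, and to 31 when the CTCF −log10 q had to reach 10. At Rad21 fold 8, the motif gave 8.45 (C) and turned to 2.62 (W), hepatocyte factor words gave 8.93 (W), clustering 7.48 (S) and 13.1 (C), introns −10.6 (S), starts within 20 kb 5.52 (C), G+C 6.88 (S), 16.1 (C) and, turned, −2.95 (W), and nearby strong CTCF −5.98 (S) and −5.32 (W). At a CTCF limit of 3, the motif gave 1.91 (C), words 7.61 (S) and, turned, −1.03 (W), introns −1.7 (S), starts 2.41 (C), G+C 6.33 (S), 11.95 (C) and, turned, −9.42 (W), and nearby strong CTCF −13.5 (S) and 6.36 (C). At a limit of 5, the words called a difference from CNC peaks, −7.05 (C, adjusted Fisher's exact p = 0.0039), with clustering at 4.17 (C), introns −3.03 (S), G+C turned to −0.156 (W) and summit offset −27.6 (S).

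The 31 peaks of high CTCF q differed most. Motif turned to 13.6 (W), words to −6.41 (S) and −9.63 (W), with −23.5 (C) called, introns gave −6.72 (S), −0.335 (C, turned) and −19.8 (W), starts 13.8 (S, turned) and −6.06 (W), G+C 8.23 (S), 6.03 (C) and −14.9 (W, turned), width 5.45 (S) and 4.84 (W), offset −7.56 (S) and 18.5 (W), and nearby strong CTCF turned to 41.0 (S, called in the opposite direction, adjusted Fisher's exact p = 4.7e-05) and 12.6 (W). With Rad21 fold 6 to 8, the motif gave 2.07 (C) and a called −3.31 (W), clustering 1.75 (S), offset −27.4 (S) and the nuclear receptor word turned to −0.387 (C). Over 2.5 kb from a start, the motif gave 3.17 (C) and introns −3.86 (S). With 50% of the CTCF peak overlapped, the motif turned to −6.15 (C, called in the opposite direction, adjusted Fisher's exact p = 0.000914) and gave a called −3.15 (W), starts gave 2.09 (C) and offset 0.939 (W). There the CNC class also held Rad21 peaks with a smaller CTCF overlap.

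Other windows gave motif values of 2.58 and 2.23 (C) at 50 and 200 bp. At 50 bp ONECUT, AP-1 and nuclear receptor words turned to 0.493, 1.75 and −1.66 (C), C/EBP and nuclear receptor words lost the call at 2.25 and 2.16 (W), ONECUT gained one at 2.03 (W), and G+C gave 1.66 (S). Clusters of 5 kb gave 0.521 (S). Offsets of 50 bp gave −49.1 (S) and 0.224 (W), of 200 bp −13.3 (S), and widths of 800 bp 9.35 (S), 7.75 (C) and 7.24 (W). In windows of at least 50% G+C, words turned to 0.894 (C).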
